A study of Mus musculus with 5 samples.

Results

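Guides to Max and to the genes of its partner proteins were followed through a pooled loss-of-function screen of embryonic stem (ES) cells of the mouse, made with CRISPR. Members were the guides whose target name in the deposited counts was Max, Myc, Mycn, Mycl (Mycl1 has no guides under that name), Mxd1, Mxd3, Mxd4, Mxi1, Mnt, Mlx, Mlxip or Mlxipl. These are 120 of the 17820 guides of the library and 12 of its 1682 genes, at 10 guides a gene. In such a screen every cell carries a guide RNA that sends the Cas9 nuclease to a chosen gene, and the reads on a guide report how common its carriers are. Transduced cells gave a single library per time point (days 5, 8 and 12), and the plasmid pool, before it met cells, gave 2. All samples are labelled Ainv15(iNgn2 Tubb3::GFP), the plasmid libraries too. The transduced cells grew in ES cell medium under Zeocin, and the labels give no other treatment. The labels do not say how the wells of the screen were pooled, or whether the days follow 1 culture. Day numbers are ambiguous, since titles start them at transduction and the protocol text starts day 5 at selection. Slopes per day use the titles.

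MAX is a basic helix-loop-helix leucine-zipper protein that binds the E-box DNA element as a dimer and sits at the centre of its network. With MYC, MYCN or MYCL it activates genes of growth and biosynthesis, while with MXD1, MXD3, MXD4, MXI1 or MNT it recruits SIN3 corepressors to the same kind of element. MLX is a parallel centre that pairs with the glucose-responsive factors MLXIP (also called MondoA) and MLXIPL (also called ChREBP). In mouse ES cells MAX is known to be needed to keep the undifferentiated state, and together with MGA it represses germ-cell genes. Myc and Mycn are known to stand in for each other in these cells.

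The guides to Max (chromosome 12, 76937269 to 76962323, GRCm38.p6) are shown because the results turn on them. They are numbered in the order of the files, and capitals mark the 12 bases next to the PAM, the part of a guide that Cas9 reads most strictly.
Max guide 1: tgtgaaagCTGTCTTTGATG
Max guide 2: caggaagaAACTCCGGATGG
Max guide 3: gagcaggaAGAAACTCCGGA
Max guide 4: atgcactgGAACGAAAACGT
Max guide 5: agtatatcCAGTATATGCGA
Max guide 6: aagacattGATGACCTCAAG
Max guide 7: gaagagcaTTCTGCCGCTTG
Max guide 8: cccagagcAGGAAGAAACTC
Max guide 9: gcgggctcACCATAATGCAC
Max guide 10: atcttgccTTCTCCAGTGCA

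Guides 2, 3 and 8 overlap on the same strand and share the 13 bases caggaagaaactc, so they read 1 stretch of the gene and are not separate targets. Guides 2 and 3 share 17 bases. Where each guide cuts in Max was not analysed here. The PAM side was read from the library itself: 24 guides lie within the promoter window of their own gene in the RefSeq table, and 24 of these 24 sites have NGG at the guide's 3′ end. The 1 member guide among them is Mxi1 guide 6, at chr19:53329683-53329702 on the minus strand (GRCm38.p6), with the PAM AGG.
Mxi1 guide 6: aaaactccGCGGCCTCCAGC

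A further 4 guides are shown because they could not be measured. Mnt guides 1 and 10 are exact reverse complements of each other, as are Mlx guides 9 and 10.
Mnt guide 1: gaagcgcaACATCCCCAACG
Mnt guide 10: cgttggggATGTTGCGCTTC
Mlx guide 9: gaggcggcGTGCGCACACTC
Mlx guide 10: gagtgtgcGCACGCCGCCTC
All 4 had 0 reads in all 5 libraries. The whole library holds 110 such reverse-complement pairs within a gene, and all 220 of their guides had 0 reads in every library. Only 3 of the 223 guides with 0 reads everywhere lie outside these pairs. The missing reads of Mnt and Mlx are therefore shared with every pair of this kind in the table, and their cause was not tested.

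The cell libraries held 1008492 to 1082489 reads, and plasmid libraries 1 and 2 held 3541896 and 1350234. Guides with at least 30 reads in both plasmid libraries were kept, which left 96 of the 120 member guides, 6 to 10 a gene. Of the 24 left out, 4 are the guides with 0 reads and 20 had fewer plasmid reads than the minimum. The change of a guide is the log2 ratio of its scaled counts (CPM, reads scaled to a common library total) plus 1 to the plasmid mean plus 1, and the value of a gene is the median over its kept guides. An SD beside a median is over guides, which share a target and are not replicates of a day. The plasmid libraries, set against each other in the same way, gave 0 of 1682 genes with a median past 1 in size, and the largest gene median was 0.42 in size. The 3 days share the plasmid libraries as their baseline, so their values are given side by side.

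Guides to Max were lost. Their summed scaled reads stood at 53.6%, 17.6% and 13.6% of the plasmid level on days 5, 8 and 12. Their median change on days 5, 8 and 12 was -0.72 (SD 0.55), -2.99 (SD 1.55) and -4.04 (SD 2.18, 9 guides), with 9 of 9 kept guides below 0 at each day. From day 5 to day 8 the median guide changed by -1.87, and from day 8 to day 12 by -0.44. The later value is that of guide 1, which went from 5 reads to 3. Guide 6 had 0 reads on both days and entered as a change of 0. Guides 4 and 5 changed by -2.27 and -2.34 over that interval, and guides 3 and 9 by 0.28 and 0.98. All 10 guides together took 0.0533% of the reads in plasmid library 1 (95% exact binomial interval 0.0509 to 0.0558) and 0.0532% in plasmid library 2 (0.0494 to 0.0572). In cells the share on days 5, 8 and 12 was 0.0293% (0.0261 to 0.0327), 0.00952% (0.00777 to 0.0115) and 0.00694% (0.00541 to 0.00877). The 5 intervals separate each cell library from both plasmid libraries and day 5 from day 8, while those of days 8 and 12 overlap. Such intervals cover counting error only, since reads are not separate cells. At day 12 the median of Max was lower than that of 1677 genes and higher than that of 4. No kept non-targeting guide at day 8 or day 12 lay below the median of Max (0% of 893). The rank enters guides with 0 reads at scaled counts plus 1, and not at a bound.

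Slopes of log counts over days, with plasmid entered as day 0, were fitted to the 5 libraries and tested by edgeR's quasi-likelihood method. The fit leaves 3 residual degrees of freedom, which hold the difference between plasmid libraries and any bend in the course. Sampling of cells that carries over from day to day is not in that spread. Among all kept guides 22.9% fell and 17.8% rose at a Benjamini-Hochberg adjusted p under 0.05, so a call on its own is common here. Among the 893 kept non-targeting guides 45.5% rose and 4.82% fell, so a rise is relative to guides to genes and not to control guides. Of the 9 kept guides to Max 7 fell. Summed over the 9 kept guides, Max had 1825 and 690 plasmid reads, and 290, 96 and 65 reads on days 5, 8 and 12. They fell with a slope of -0.26 log2 units a day (SE 0.025, adjusted p = 8.47e-05 by edgeR), against a background of 25.2% of genes whose sums fell. In all 11 alternatives of that test the sum of Max fell as well.

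The guides to Max did not behave alike, at day 5 or later. Guide 4 had 243 and 130 plasmid reads, then 34 at day 5, 4 at day 8 and 0 at day 12, which is at least 25.6-fold lower than in the plasmid libraries (3 reads taken as the floor of that library). Guide 6 had 100 and 46 plasmid reads, 7 at day 5 and 0 at both later days, at least 11.1-fold lower at day 8 and at least 9.68-fold lower at day 12. Guide 5 had 371 and 103 plasmid reads, 39 at day 5, 10 at day 8 and 1 at day 12, when 1.18% of its plasmid level was left (exact Poisson interval of the day's reads 0.0300 to 6.59). For guides 4 and 6 only the bound is known at day 12. Guide 1 went down in the same way, with 272 and 104 plasmid reads, 52 at day 5, 5 at day 8 and 3 at day 12, or 4.18% of the plasmid level at day 12 (0.862 to 12.2). Guide 7 had 352 and 146 plasmid reads and kept 78.6% of its plasmid level at day 5 (62.9 to 97.1), with 86 reads, but had 13 reads at day 8 and 5 at day 12. Guide 10 had 70 and 38 plasmid reads, 15 at day 5, 6 at day 8 and 4 at day 12, a change of -2.24.

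Guides 2, 3 and 9 kept more of their reads. Guide 2 had 185 and 41 plasmid reads, 26 at day 5, 32 at day 8 and 14 at day 12. Guide 3 had 71 and 31 plasmid reads, 15 at day 5, 12 at day 8 and 13 at day 12. Guide 9 had 161 and 51 plasmid reads, 16 at day 5, 14 at day 8 and 25 at day 12, and with guide 3 it is 1 of the 2 kept guides to Max without a call (edgeR adjusted p = 0.0642 for guide 9 and 0.167 for guide 3). Put together after their values were seen, and so with no test, guides 2, 3 and 9 stood at 51.7%, 52.1% and 53.4% of their plasmid level on days 5, 8 and 12. The other 6 stood at 54.0%, 8.73% and 3.41%. In summed reads both sets thus stood about level at day 5 and apart at day 8. By guide, the changes at day 5 ran from -1.40 to -0.56 for guides 2, 3 and 9. For the other 6 they ran from -2.08 to -0.34. By day 12 guides 2, 3 and 9 held 52 of the 65 reads left on Max. Guides 2 and 3 are from the overlapping stretch printed above, while guide 8 of that stretch, left out for 28 reads in plasmid library 2, had 63 reads in plasmid library 1, 21 at day 5, 7 at day 8 and 5 at day 12. With the guides at 0 reads set to their floor, the median of Max at day 12 was -3.27 or lower.

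Guide GC content moved with abundance in this screen. Among non-targeting guides the change at day 12 rose by 0.125 log2 units for each further G or C in the guide. Guides 2, 3 and 9 to Max have 11 to 12 G or C of 20 bases, and the other 6 have 7 to 11. The part of GC content in the difference between them was not tested. After a correction for this slope the medians of Max on days 5, 8 and 12 were -0.70, -2.64 and -3.83.

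The partners that activate with MAX showed no such loss. Medians at days 5, 8 and 12 were -0.02, -0.05 and 0.09 for Myc (chromosome 15, 61985341 to 61990361), with an SD of 0.54 over 9 guides at day 12. For Mycn (chromosome 12, 12936093 to 12941836) they were 0.04, -0.36 and -0.25 (SD 0.69, 7 guides), and for Mycl (chromosome 4, 122995588 to 123002490) they were -0.03, -0.13 and -0.18 (SD 1.64, 8 guides). At day 12 the kept guides of Myc summed to 696 reads and those of Mycl to 461, without a call for either sum (edgeR adjusted p = 0.415 and 0.268). With libraries scaled on non-targeting guides the sum of Myc fell (slope -0.05, adjusted p = 0.0141). Those of Mycn summed to 333 reads at day 12, against 1491 and 703 in plasmid libraries 1 and 2, and fell with a slope of -0.04 (SE 0.014, edgeR adjusted p = 0.0422). That call was lost without plasmid library 2 (adjusted p = 0.24), without the day 8 library (0.0924) and on a log2 scale of days (0.0784). With at least 100 reads in both plasmid libraries the median of Mycn at day 12, over fewer guides, was -1.51. With no guide filter it was -0.32. Guides 1, 4 and 8 to Mycn were left out by the read minimum. They stood at 110%, 10.8% and 24.6% of their plasmid level at day 12, on 22, 1 and 4 reads.

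Within these genes single guides moved apart from the rest of their gene.
Myc guide 7: gccctattTCATCTGCGACG
Mycn guide 5: tagggcgtGCACGTACTCGG
Mycn guide 6: tgctgcacCCTCACCCTACG
Mycl guide 4: agctcccaAGGAGAAAGAGG
Mycl guide 10: tctctccaGCCGTTCTCGGG
Each was called by the trend. Myc guide 7 had 453 and 151 plasmid reads, 67 at day 5, 54 at day 8 and 52 at day 12. No call was made for the other 8 kept guides to Myc. Mycn guide 5 fell, with 76, 49 and 31 reads on days 5, 8 and 12 against 287 and 150 in the plasmid libraries. Mycn guide 6 fell as well, with 39, 29 and 22 reads against 175 and 112, while the other 5 had no call. Mycl guides 4 and 10 moved in opposite directions. Mycl guide 4 had 209 and 78 plasmid reads, 35 at day 5, 18 at day 8 and 4 at day 12 (-3.49), and Mycl guide 10 had 97 and 45 plasmid reads, 34 at day 5, 67 at day 8 and 155 at day 12 (2.42). No call was made for the remaining 6 kept guides to Mycl, so a gene median near 0 covers both.

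Of the genes whose proteins repress with MAX, 3 had sums that rose, and none fell. Mxd1 (chromosome 6, 86647044 to 86669234) had the highest median of the members at days 8 and 12, with medians of 0.32, 0.57 and 0.69 at days 5, 8 and 12 (SD 0.49 at day 12) and 8 of 8 guides above 0 at day 12. With no guide filter its median at day 12 was 0.30, below the 0.44 of Mxi1 and the 0.37 of Mxd3. Its guides summed to 1940 and 737 plasmid reads, and to 707, 880 and 892 reads on days 5, 8 and 12, a slope of 0.07 (SE 0.0072, edgeR adjusted p = 0.000102). The sums of Mxi1 (slope 0.03, SE 0.0083, edgeR adjusted p = 0.00745) and Mxd3 (0.03, SE 0.0085, adjusted p = 0.0186) also rose. Over all genes 34.7% of sums rose. With libraries scaled on non-targeting guides the rises of these 3 were lost, and the slopes of Mxi1 (-0.02) and Mxd3 (-0.03) turned negative, while that of Mxd1 was 0.01 (adjusted p = 0.28). The median of Mxd1 lay above 57.4% of non-targeting guides, whose own median was 0.58 at day 12. With at least 100 plasmid reads the calls of Mxi1 (edgeR adjusted p = 0.291) and Mxd3 (0.244) were lost as well. At that minimum only guides 3 and 4 to Mxi1 and guides 2 and 9 to Mxd3 were kept. The call of Mxd3 was also lost without plasmid library 1 (0.106) and without the day 12 library (0.0915).

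Mxd1 guides 4, 5, 6 and 10 are shown because they were the 4 of the 8 kept guides to this gene that rose. Over all kept guides 17.8% rose, and over kept non-targeting guides 45.5%. With non-targeting scaling 5 member guides rose, beside 11 with the scaling used here.
Mxd1 guide 4: gaggactcGGATGGACAGCG
Mxd1 guide 5: cctgtgccTAGAGAAGCTAA
Mxd1 guide 6: aacagcggCACCTGAAGCGG
Mxd1 guide 10: gcttctctAGGCACAGGCGG
Guides 5 and 10 lie on opposite strands and share the 17 bases cctgtgcctagagaagc, so they read 1 stretch of the gene. Their changes at day 12 were 1.06 and 1.27, beside 1.21 for guide 4 and 1.15 for guide 6. Guide 9, which shares 14 bases with guide 5, had no call at 0.32.

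Mxd4 (chromosome 5, 34176580 to 34187710) and Mnt (chromosome 11, 74830806 to 74845725) had no call on their sums (edgeR adjusted p = 0.913 and 0.185). With non-targeting scaling both fell, with slopes of -0.06 for Mxd4 (adjusted p = 0.0132) and -0.07 for Mnt (adjusted p = 0.000519). Medians at days 5, 8 and 12 were 0.33, 0.04 and -0.04 for Mxd4, and -0.06, -0.07 and -0.41 for Mnt. For Mnt 6 of 8 guides were below 0 at day 12, and the sum had 676 reads at day 5, 683 at day 8 and 497 at day 12. Mnt guide 9 went the other way, with 35, 74 and 68 reads at the 3 days against 129 and 43 in the plasmid libraries, and rose. Mxd4 guide 5 fell, with 24, 17 and 21 reads against 169 and 61. For Mxi1 (chromosome 19, 53310128 to 53373293) medians were 0.20, 0.19 and 0.34, and for Mxd3 (chromosome 13, 55325170 to 55329900) they were 0.06, 0.22 and 0.38. Each had 1 guide that rose: Mxi1 guide 7 had 83, 93 and 118 reads against 177 and 72, and Mxd3 guide 1 had 70, 72 and 82 reads against 148 and 58. After the GC correction those at day 12 were -0.04 for Mxi1 and 0.06 for Mxd3, and 0.74 for Mxd1.

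In the MLX branch, Mlxip had the lowest medians of the members after Max, a rank that some alternatives changed. After the GC correction Mxi1 (-0.19) and Mlx (-0.15) lay below Mlxip (-0.13) at day 5, and Mycn (-0.62) below Mlxip (-0.45) at day 8. With no guide filter Mlx (-0.74) and Mycn (-0.66) lay below Mlxip (-0.45) at day 8, and Mnt (-0.41) below Mlxip (-0.36) at day 12. Mlxip (chromosome 5, 123394521 to 123457932) had medians of -0.40, -0.57 and -1.31 on days 5, 8 and 12 (SD 1.26 on day 12, 7 guides). Its guides summed to 1223 and 467 plasmid reads, and to 268, 214 and 227 reads on days 5, 8 and 12, and fell with a slope of -0.05 (SE 0.019, edgeR adjusted p = 0.0312). Without plasmid library 1 or without plasmid library 2 the call was lost (adjusted p = 0.169 and 0.168), as without the day 8 library (0.0575). The 7 kept guides are printed because 4 of them fell and 3 had no call.
Mlxip guide 1: ttgatgtaGATGAACACCGT
Mlxip guide 6: ctcgaatcACAATCTCAATG
Mlxip guide 8: cggcgaacACATGAAAACGT
Mlxip guide 10: aaatcataGCCCTTCTTGGG
Mlxip guide 4: catctagtGGGGTGACAAAG
Mlxip guide 5: ggggtgacAAAGTGGCACAC
Mlxip guide 7: gcgacgcaTCGATGGACAAG
Guides 1, 6, 8 and 10 fell, with changes from -2.49 to -1.31 at day 12, and they have 8 to 10 G or C. Guides 4, 5 and 7 had no call and lay between 0.19 and 0.70, with 10 to 12 G or C, and the part of GC content in this was not tested. Guides 4 and 5 share the 12 bases ggggtgacaaag. Guide 6 had lost most of its reads by day 5, with 13 reads then against 181 and 73 in the plasmid libraries. The median of Mlxip at day 12 was not past 1 in size after the GC correction (-0.93), as a mean over guides (-0.78) or with no guide filter (-0.36). With at least 100 reads in both plasmid libraries only Mlxip guide 8 was kept, with 247 and 107 plasmid reads. The slope of Mlxip was then -0.17 and its change at day 5 was -1.56, both from that guide alone. The median of Max at day 5 was -0.995 at that minimum.

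Mlx (chromosome 11, 101086707 to 101092207) had medians of -0.23, -0.48 and 0.04 over its 6 kept guides and no call on its sum (edgeR adjusted p = 0.225). Mlx guide 6 rose, with 205, 224 and 232 reads at the 3 days against 445 and 215 in the plasmid libraries, and Mlx guide 8 fell, with 52, 28 and 19 reads against 180 and 64. Mlxipl (chromosome 5, 135089890 to 135139768) had medians of 0.22, 0.34 and 0.14 over 10 guides. Its sum rose to 1172 reads at day 12, against 2962 and 1114 in plasmid libraries 1 and 2, with a slope of 0.04 (SE 0.01, edgeR adjusted p = 0.00548). That rise was not called with non-targeting scaling (slope -0.01), without the day 12 library (adjusted p = 0.127) or on a log2 scale of days (0.0506).
Mlxipl guide 2: agtgtcggATCGATGCTGCG
Mlxipl guide 4: cgggtcagCGAGTCGCTGTG
These are the 2 of its guides that rose, to 247 and 408 reads at day 12 against 325 and 443 in plasmid library 1, which was sequenced more deeply, while guide 10 fell, to 68 reads against 466 and 180 in the plasmid libraries. The other 7 guides to Mlxipl had no call.

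Counted over the whole network, the shares of calls were near or below those of the library. Of the 12 genes 3 fell (Max, Mycn and Mlxip), or 25% against 25.2% of all genes, and 4 rose, or 33.3% against 34.7%. Of the 96 kept guides 18 fell, or 18.8% against 22.9% of all guides, and 11 rose, or 11.5% against 17.8%. Without Max, 11 of 87 guides fell, or 12.6%. By size of the median, 0 members were at or below -1 at day 5, where 6.3% of genes were. At day 8 there was 1, Max, against 12.1% of genes, and at day 12 there were 2, Max and Mlxip, against 15.8%. No member was at or above 1 at any day, where the shares of genes on days 5, 8 and 12 were 0.0595%, 0.178% and 1.19%. The median over the 12 genes at day 12 was -0.0023, beside 0.0090 over all genes. The other 11 genes spanned -1.31 to 0.69 at day 12, all above the -4.04 of Max.

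The genes whose 3 medians lay nearest to those of Max, by Euclidean distance over the 3 days among all genes with at least 4 kept guides, were Srsf1 (distance 0.61), Hnrnpk (0.67), Kmt2b (0.74), Ttf2 (0.79) and Cnot2 (0.83). Srsf1 is a splicing factor, Hnrnpk an RNA-binding protein gene, Kmt2b a histone H3 lysine 4 methyltransferase, Ttf2 a transcription termination factor and Cnot2 a subunit of the CCR4-NOT deadenylase. Their medians at day 5 ran from -1.39 for Cnot2 to -0.76 for Ttf2, against -0.72 for Max. At day 8 they ran from -3.13 for Cnot2 to -2.67 for Kmt2b, against -2.99 for Max. At day 12 they ran from -4.83 for Ttf2 to -3.41 for Kmt2b, against -4.04 for Max. The kept guides of these genes then summed to between 9 reads (Ttf2) and 62 (Srsf1). The day 12 part of the distance thus rests on few reads.

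Cofactors of the network were read from lists of known partners. Of 11 genes around MGA and the polycomb complex that it and MAX join, 9 were in the library, and 7 of their sums fell while 1 rose, beside 25.2% and 34.7% of all gene sums. The 7 were Cbx3 (median -2.57 at day 12), Pcgf6 (-2.09), Rnf2 (-1.93), E2f6 (-1.80), Tfdp1 (-1.16), Rybp (-0.71) and L3mbtl2 (-0.68). Yaf2 (0.07) rose and Ring1 (-0.31) had no call. Pcgf6 and L3mbtl2 are subunits particular to that complex, while Cbx3, Rnf2 and Rybp serve others too. The median over the 9 genes was -1.16. Mga itself was among the 11 listed and has no guides under that name in the library.

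Of 12 MYC cofactors 8 were in the library, and 6 of their sums fell and 2 rose, where 25.2% and 34.7% of all gene sums did. Falling were the ATPase genes Ruvbl2 (-3.32) and Ruvbl1 (-3.16), Zbtb17 (-2.83), Hcfc1 (-2.15), the SWI/SNF subunit Smarcb1 (-1.86) and the acetyltransferase Kat5 (-1.36). Zbtb17 codes for the MYC-binding protein MIZ1. Ep400 (0.45) and Trrap (-0.07), large subunits of the KAT5 complex, rose on their sums, although the median of Trrap was below 0. The list median was -2.00. Kat5, Ruvbl1 and Ruvbl2 code for subunits of that complex too, and these genes serve many factors besides MYC.

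Of 17 corepressor genes that MXD and MNT proteins are known to use, 15 were in the library, and 7 fell while 4 rose, against the same 25.2% and 34.7%. Those that fell were the deacetylases Hdac3 (-2.21) and Hdac1 (-1.82), the scaffold Sin3a (-1.81), the histone-binding Rbbp4 (-1.76), Arid4a (-0.92), Ing2 (-0.47) and Ncor1 (-0.14). Those that rose were Kdm5b (2.59), Sin3b (0.30), Rbbp7 (0.26) and Hdac2 (-0.08). The median of Hdac2 was below 0 although its sum rose. The list median was -0.42.

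Among 9 other leucine-zipper factors of the E-box class, all in the library, Srebf2 (-1.75), a regulator of sterol synthesis, fell and was lowest. Tfeb (0.52), a lysosomal regulator, and Srebf1 (-0.05) rose on their sums, and 6 had no call. The list median was -0.0012. With non-targeting scaling 19 of all 1682 gene sums rose, beside 584 with the scaling used for these lists. Which of the rises in these lists remain with non-targeting scaling is not given here.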

How the data were processed

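The deposited files hold raw counts of reads on each guide, as the file headers name them, and all values are whole. Per the submitters' processing notes, cutadapt, Bowtie, featureCounts and mm10 were used; versions are not given. How reads were matched to guides is not given in the sources used here. Symbols and gene coordinates come from a RefSeq table of GRCm38.p6, where 12 of 12 members matched.

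Counts were scaled to CPM with TMM factors of edgeR 4.0.16 (R 4.3.3). Slopes over days were fitted with glmQLFit and glmQLFTest across all kept guides, and across sums of the kept guides of all 1682 genes, with Benjamini-Hochberg adjustment over the whole table. "Fell" and "rose" are used of sums and guides past an adjusted p of 0.05. Medians have no test, since each day has 1 library; no p-value here rests on replicate cultures. The plasmid libraries enter the slope at day 0, by the day count of the titles. Alternatives were DESeq2 1.42.0, other scaling, read minimum, pseudocount and time scale, a GC correction, and leaving out each library. The fits were also run on simulated counts, drawn independently for each library. That run does not cover sampling of cells that carries over from day to day. Every member is named; guides are given singly for Max, and elsewhere mainly where the trend called them. In each list the genes called and the lowest and highest medians are named. The members, lists and rules were chosen with earlier results of these data known. No genome was used, so cut sites were left out. A further gene of the corepressor list is not reported here, and that list's counts and median leave it out.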

Additional observations from a re-analysis of the deposited data

How the results depend on the processing

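In each alternative run the sum of Max fell and its median was below -1 at days 8 and 12. Its slope lay between -0.37 and -0.23 on the scale of days and was -0.67 per log2 unit of 1 + day. Its median at day 12 lay between -5.16 (at least 100 plasmid reads) and -2.87 (pseudocount 5), and with overlapping guides averaged, an alternative added after seeing the data, it was -4.13. With at least 100 reads in both plasmid libraries only guides 1, 4, 5 and 7 to Max were kept, and all 4 fell. The median of -5.16 is over these guides, without guides 2, 3 and 9.

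Scaling on non-targeting guides shifted the median of all genes by -0.60 at day 12, -0.54 at day 8 and -0.43 at day 5. With it 6740 guides fell and 485 rose (39 and 5 of the members), and 1084 gene sums fell and 19 rose (6 and 0 of the members). Genes at or below -1 then numbered 222, 365 and 458 at days 5, 8 and 12, and genes at or above 1 numbered 1 at day 8 and 7 at day 12. Slopes turned to -0.046 for Myc (called, edgeR adjusted p = 0.0141), -0.037 for Mycl, -0.027 for Mxd3, -0.021 for Mxi1, -0.037 for Mlx and -0.010 for Mlxipl. With at least 100 plasmid reads 1139 guides fell and 982 rose (9 and 5 of the members). Of gene sums 376 rose (2 of the members). The slope of Mxd4, which then kept only guide 2, turned to 0.019. At that minimum 3, 10 and 40 genes were at or above 1 at days 5, 8 and 12. On the log2 scale of days the slope of Mxd4 was 0.0085. The GC correction left 5 genes at or above 1 at day 8.

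Leaving out 1 library at a time, between 2198 and 3929 guides fell and between 1403 and 3162 rose, between 326 and 442 gene sums fell and between 403 and 588 rose, and of the members 1 to 3 sums fell and 2 to 4 rose. The 5 gene sums without a call had slopes that changed sign, over ranges of -0.0049 to 0.014 for Myc, -0.0088 to 0.024 for Mycl, -0.0029 to 0.026 for Mlx, -0.020 to 0.0029 for Mnt and -0.0095 to 0.0092 for Mxd4. Genes at or above 1 at day 8 numbered 4 without plasmid library 1 and 5 without plasmid library 2. No paired analysis was possible because the cell libraries carry no replicate number and each time point has 1 library. A guide with 0 reads gives only a bound, at a floor of 3 reads.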
